A study of Mus musculus with 10 samples.

Results

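The 10 genes described here are markers of fat cells that were read in whole skeletal muscle: the secreted proteins Adipoq, Lep, Retn and Cfd, the lipid droplet proteins Plin1 and Cidec, the lipid handling proteins Fabp4 and Lpl, and the transcription factors Pparg and Cebpa. They were chosen by name. Each gene was taken at the listed transcript with the highest mean over the 10 libraries, and all 10 were present among the 37947 gene symbols of the table, at 21 of its 92251 transcripts. Of the 10 genes, 5 (Adipoq, Cidec, Fabp4, Cfd and Lpl) were above 0 in every library, and 8 had a mean FPKM of at least 1 and were tested. Pparg and Lep did not reach that mean.

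Fat cells store triglyceride in 1 large droplet whose surface is coated by perilipin 1, the product of Plin1, and they release hormones such as adiponectin and leptin. Pparg and Cebpa encode the nuclear receptor and the leucine zipper factor that turn a precursor into a fat cell and keep its genes on. Skeletal muscle holds a few fat cells between its fibers. Lpl and Fabp4 are not restricted to fat: muscle fibers make lipoprotein lipase, and capillary endothelium and macrophages also make the fatty acid binding protein 4.

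The libraries came from the gastrocnemius, a large hind limb muscle made mostly of fast fibers, of male C57BL/6 mice with no other treatment or allele named. There were 5 young libraries from mice of 6 months and 5 aged libraries from mice of 24 months. The labels number the libraries within an age without naming the mouse, so p-values measure the spread between these libraries. Values are log2 FPKM, that is, reads scaled to the length of the transcript and to the depth of the library, on a log2 scale, so that a difference of 1 is 2-fold. A value of 0 stands for an FPKM of 1 or less.

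The depth was 19886212 to 34554346 reads, so that for a transcript of 1 kb each unit of FPKM was worth 19.9 to 34.6 reads. Fiber genes were high in these libraries, as the tissue label says. Ckm, the muscle creatine kinase, had a mean log2 FPKM of 14.08 and Tnnt3, the fast troponin T, one of 15.24, against 3.07 for Adipoq. Young 3 and aged 3 stood apart from the other libraries. They were the deepest, at 34554346 and 31783493 reads. Even so, 35024 and 29878 of their transcripts were above 0, while the others had 38855 to 43296. In these libraries, shorter transcripts of Adipoq, Cidec and Lpl also held fewer reads relative to longer ones. The differences of the members are therefore also given without them, while the gene lists are given with all 10 libraries unless stated.

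The sequences just upstream of 5 of the genes are shown because these 5 (Adipoq, Cidec, Plin1, Retn and Cfd) had the widest spread between libraries, in mostly the same libraries, as described further on. Each is the 250 bases before an annotated start, 5′ to 3′ on the strand of the gene (RefSeq, GRCm38.p6), with matches to TTNNGNAA on either strand in capitals, a short form of the sequence bound by the C/EBP family, to which Cebpa belongs. Adipoq lies on the plus strand at chr16:23146286-23146535, Cidec on the minus strand with 2 starts, that of Cidec-001 at chr6:113435761-113436010 and that of Cidec-003, the row used, at chr6:113434765-113435014, Plin1 on the minus strand at chr7:79732777-79733026, Retn on the plus strand at chr8:3655520-3655769 and Cfd on the plus strand at chr10:79890603-79890852.
Adipoq: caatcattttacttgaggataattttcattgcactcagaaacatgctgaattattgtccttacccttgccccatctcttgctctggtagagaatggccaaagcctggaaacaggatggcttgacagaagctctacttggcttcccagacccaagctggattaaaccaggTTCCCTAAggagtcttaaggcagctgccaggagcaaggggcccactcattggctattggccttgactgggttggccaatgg
Cidec, start of Cidec-001: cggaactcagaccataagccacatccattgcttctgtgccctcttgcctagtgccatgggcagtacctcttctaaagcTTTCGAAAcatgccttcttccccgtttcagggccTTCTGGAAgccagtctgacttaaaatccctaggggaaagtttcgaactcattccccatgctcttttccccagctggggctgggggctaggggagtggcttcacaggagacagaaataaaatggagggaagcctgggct
Cidec, start of Cidec-003: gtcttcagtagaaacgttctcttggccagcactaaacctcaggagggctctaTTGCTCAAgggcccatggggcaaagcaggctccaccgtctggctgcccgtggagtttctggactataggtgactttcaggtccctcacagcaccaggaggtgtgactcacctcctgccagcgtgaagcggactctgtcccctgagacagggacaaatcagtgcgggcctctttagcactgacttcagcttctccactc
Plin1: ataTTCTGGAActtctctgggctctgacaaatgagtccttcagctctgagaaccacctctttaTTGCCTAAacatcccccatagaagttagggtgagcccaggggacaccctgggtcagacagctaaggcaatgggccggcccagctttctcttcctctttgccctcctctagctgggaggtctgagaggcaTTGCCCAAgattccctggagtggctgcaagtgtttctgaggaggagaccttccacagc
Retn: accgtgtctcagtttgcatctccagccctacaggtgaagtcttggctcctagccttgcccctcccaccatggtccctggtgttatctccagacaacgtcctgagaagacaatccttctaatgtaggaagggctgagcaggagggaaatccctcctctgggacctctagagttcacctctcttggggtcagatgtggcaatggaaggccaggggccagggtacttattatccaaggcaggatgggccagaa
Cfd: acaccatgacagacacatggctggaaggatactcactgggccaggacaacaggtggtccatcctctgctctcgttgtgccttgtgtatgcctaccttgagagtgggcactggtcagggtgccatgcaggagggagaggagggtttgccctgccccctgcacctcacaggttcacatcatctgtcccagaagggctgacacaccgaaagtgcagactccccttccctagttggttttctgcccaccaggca

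Capitals mark 1 place upstream of Adipoq, 2 upstream of the start of Cidec-001, 1 upstream of that of Cidec-003 and 3 upstream of Plin1. No match lay in the windows of Retn and Cfd. RefSeq windows were found for 8 of the 10 members, not for Fabp4 and Lpl, and 6 of the 11 windows of members held the C/EBP motif, beside 12104 of all 32851 windows (36.8%). The shorter motif AGGTCA, bound by nuclear receptors of the kind that Pparg encodes, was in 2 of the 11 (both at Pparg itself) and in 14.0% of all windows. A match is a run of letters and was not tested for binding.

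The levels spanned a wide range. In order of the mean log2 FPKM, they were Fabp4 at 7.95, Lpl at 5.94, Cfd at 5.00, Adipoq at 3.07, Cidec at 2.12, Retn at 1.23, Cebpa at 0.99, Plin1 at 0.78, Lep at 0.25 and Pparg at 0.18. Fabp4 was above Lpl, Cfd above Adipoq and Adipoq above Cidec in 10 of 10 libraries. The order was less firm lower down. Retn was above Cebpa in 6 of 10 libraries with a mean difference of 0.24 ± 0.66 (SD), Cebpa was above Plin1 in 6 of 10 (0.21 ± 0.58), and Lep was above Pparg in 3 of 10 (0.07 ± 0.57). These neighbors did not differ beyond their spread.

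**Figure D1:**
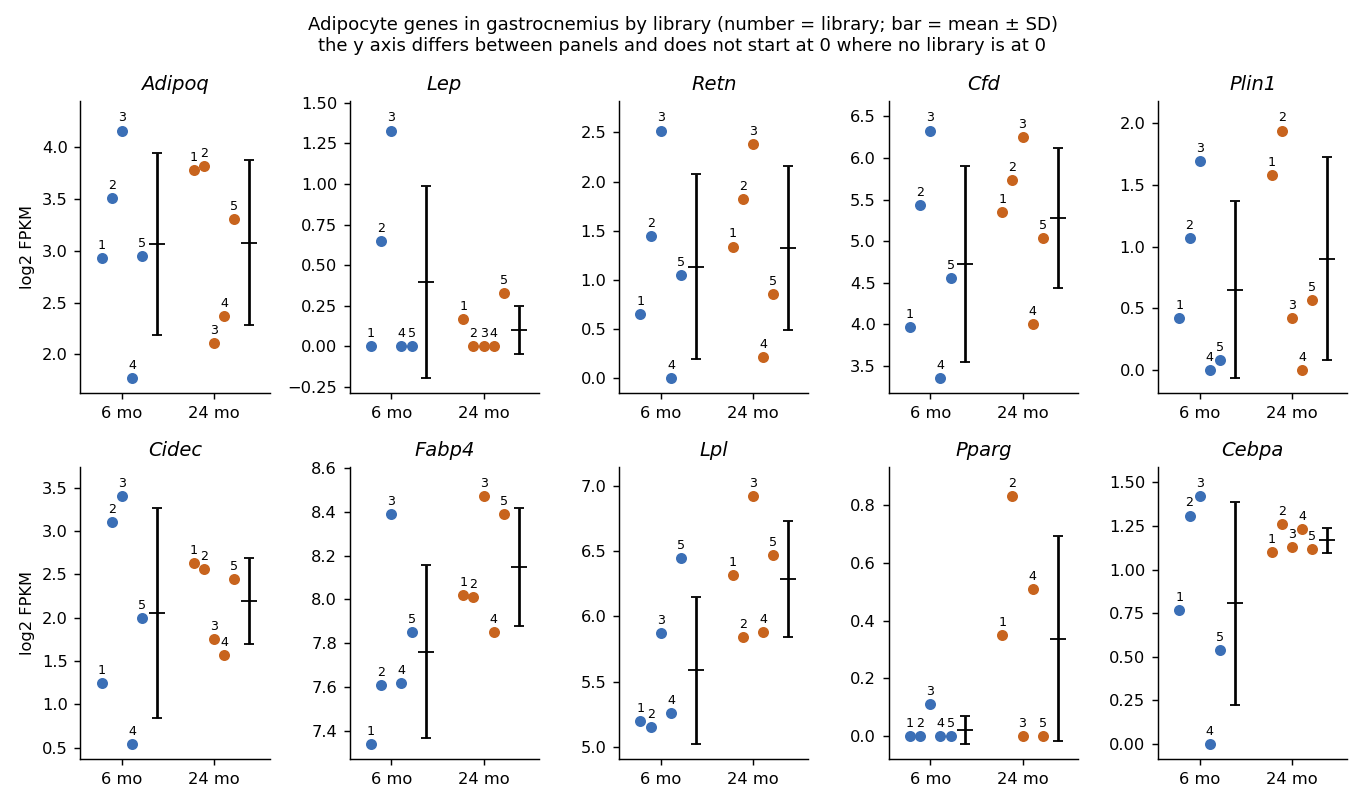
Log2 FPKM of each of the 10 genes in every library, in 1 panel a gene, with young (6 months, blue) and aged (24 months, orange) libraries marked by their numbers and the mean ± SD (n = 5 for each age) at the right of each group. The ages overlapped for all 10 genes, and young 3 was the highest library for 6 of them.

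Among the secreted proteins, adiponectin (Adipoq), a hormone that raises insulin sensitivity, had log2 FPKM values of 2.93, 3.51, 4.16, 1.77 and 2.95 in young 1 to 5 and of 3.78, 3.82, 2.11, 2.37 and 3.31 in aged 1 to 5. Young 3 was highest and young 4 lowest, so both extremes fell within the same age. The means were 3.07 ± 0.88 and 3.08 ± 0.79 (SD, n = 5 each), and the difference was 0.01 with a standard error of 0.48 (95% interval -1.05 to 1.08; two-sided exact permutation p = 0.968). Without both libraries numbered 3 the difference was 0.53, and without young 4 it was -0.31, a turn of direction.

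Adipsin (Cfd), the protease that starts the alternative complement pathway, ran at 3.97, 5.43, 6.33, 3.35 and 4.56 in young 1 to 5 and at 5.35, 5.73, 6.25, 4.00 and 5.04 in aged 1 to 5. It was read from many fragments, 214 in young 4 and 2557 in young 3, so counting error was small (SD 0.06 on the log2 scale). The aged mean was higher by 0.55 (standard error 0.58, exact permutation p = 0.429), a difference within the spread. It was 0.95 without young 3 and 0.21 without young 4.

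Resistin (Retn), a hormone of mouse fat cells that opposes insulin action, had values of 0.65, 1.45, 2.52, 0 and 1.05 in the young libraries and of 1.34, 1.82, 2.38, 0.22 and 0.86 in the aged ones. The libraries numbered 3 were highest and those numbered 4 lowest in both ages. The difference was 0.19 with a standard error of 0.51 (exact permutation p = 0.730). It turned to -0.09 without young 4 and to -0.07 without aged 3, and was 0.54 without young 3.

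Leptin (Lep), which signals the size of fat stores to the brain, was at the limit of detection. It was above 0 in young 2 (0.65), young 3 (1.33), aged 1 (0.17) and aged 5 (0.33) and was listed at 0 in the other 6 libraries. It was the 1 member with a lower mean at 24 months, by -0.29 (exact permutation p = 0.444), and the difference was -0.06 without young 3.

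Of the droplet proteins, perilipin 1 (Plin1), which guards the droplet from lipases, was read at 0.42, 1.07, 1.69, 0 and 0.08 in young 1 to 5 and at 1.58, 1.94, 0.42, 0 and 0.57 in aged 1 to 5. The libraries numbered 4 of both ages were at 0. The difference was 0.25 with a standard error of 0.44 (exact permutation p = 0.627). It was -0.01 without aged 2, a turn of direction, 0.08 without young 4 or aged 1 and 0.51 without young 3. Its 2 highest values, 1.94 in aged 2 and 1.69 in young 3, came from different ages.

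Cidec, which lets droplets fuse into a single large one, was at 1.24, 3.10, 3.40, 0.54 and 1.99 in young libraries and at 2.63, 2.56, 1.75, 1.57 and 2.44 in aged ones. The SD was 1.21 in the young and 0.49 in the aged libraries. The difference was 0.14 (standard error 0.53, exact permutation p = 0.817), and it was -0.24 without young 4 and 0.47 without young 3.

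The lipid handling genes were the most highly expressed members and came nearest to a separation of the ages. Lipoprotein lipase (Lpl), which frees fatty acids from circulating triglyceride at the capillary wall, had values of 5.20, 5.15, 5.87, 5.26 and 6.45 in young 1 to 5 and of 6.32, 5.84, 6.92, 5.88 and 6.47 in aged 1 to 5. Each aged library was above the young library of the same number, although young 5 lay above 3 of the 5 aged libraries. The aged mean was higher by 0.70 (1.62-fold), with a standard error of 0.31 and a 95% interval of 0.02 to 1.38. The exact permutation p was 0.0714, limma's unadjusted p was 0.0447 and its p adjusted over all transcripts was 0.9999. It did not pass the test, and the difference was 0.61 without both libraries numbered 3.

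Fabp4, a fatty acid carrier of fat cells, endothelium and macrophages, was at 7.34, 7.61, 8.39, 7.62 and 7.85 in the young libraries and at 8.02, 8.01, 8.47, 7.85 and 8.39 in the aged ones. Again each aged library was above the young one with its number. The means were 7.76 ± 0.39 and 8.15 ± 0.27 (SD, n = 5 each), a difference of 0.39 with a standard error of 0.22 (95% interval -0.10 to 0.87; exact permutation p = 0.0873). Young 3, at 8.39, was the 1 young library above the lowest aged one. Without it the ages did not overlap, if barely (7.851 for the highest young and 7.854 for the lowest aged library), and the difference was 0.54. The share of all genes that come apart without young 3 was not computed.

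The transcription factors were low. Pparg, the receptor that drives fat cell formation, was listed at 0 in 4 of the 5 young libraries and in aged 3 and aged 5. It reached 0.11 in young 3 and 0.35, 0.83 and 0.51 in aged 1, 2 and 4. The means differed by 0.32 (exact permutation p = 0.167), on values from 48 to 71 reads, with no fit in limma since its mean was too low. The difference was 0.19 without aged 2, 0.58 on the scale of log2 of FPKM plus 1 and 0.71 with the FPKM of its transcripts summed. The last 2 settings took a listed 0 as an FPKM of 0, which widens the step from the floor. The transcripts summed also had close read counts (71 and 72 in aged 2), and reads common to both would count for each.

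Cebpa was at 0.77, 1.31, 1.42, 0 and 0.54 in young 1 to 5 and at 1.10, 1.26, 1.13, 1.23 and 1.12 in aged 1 to 5. The aged libraries lay between 1.10 and 1.26 (SD 0.07) while the young ones ran from 0 to 1.42 (SD 0.58). The difference of the means was 0.36 (standard error 0.26, exact permutation p = 0.214), and it was 0.16 without young 4, which was listed at 0. No test of the difference in spread was made.

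Over the members together, limma called 0 of the 8 tested at an adjusted p under 0.05, beside 0.00788% of the 38059 transcripts tested. At an unadjusted p under 0.05, 1 member (Lpl) was higher at 24 months, beside 3.89% of transcripts, and with the replicate number as a block 3 were (Lpl, Fabp4 and Cfd, by limma), beside 6.78% of transcripts. None of the 10 differed by over 1 on the log2 scale, where 1.36% of the 12533 genes above 0 were higher and 0.447% lower by that much. The ages overlapped for every member, while 1.78% of genes were separated with the aged libraries higher and 0.287% with them lower. The median difference was 0.282 over the 10 members, of which 9 had a higher mean at 24 months, and 0.072 over the 10161 genes tested, of which 61.4% did. Without both libraries numbered 3, the differences were 0.53 for Adipoq, 0.63 for Plin1, 0.58 for Cidec, 0.27 for Retn, 0.71 for Cfd, 0.52 for Cebpa, 0.46 for Fabp4, 0.61 for Lpl, 0.42 for Pparg and -0.04 for Lep, and limma called 0 of them. With 5 against 5 libraries, the smallest exact p the design allows is 0.00794.

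**Figure D2:**
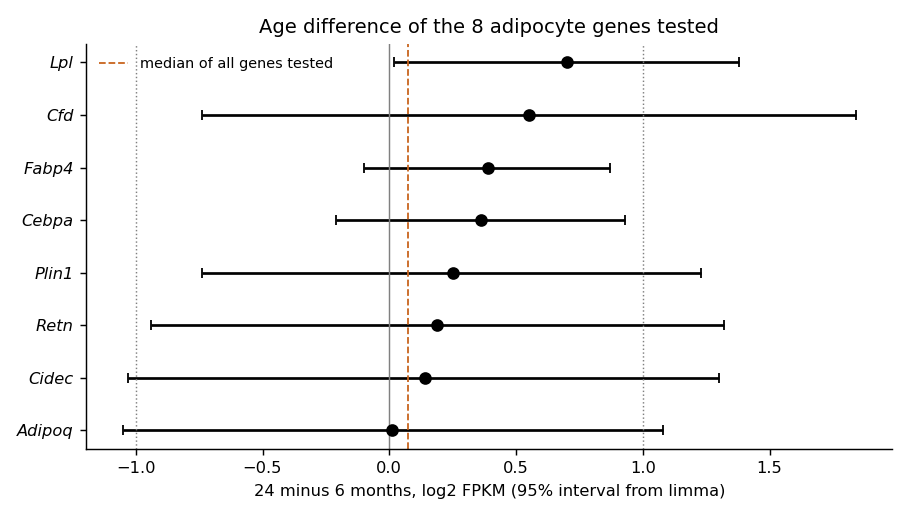
Difference of the mean log2 FPKM (24 minus 6 months) for the 8 tested genes, with points for the difference and bars for limma's 95% interval; the dashed line is the median of all genes tested (0.072) and the dotted lines mark a 2-fold change. The interval of Lpl, 0.02 to 1.38, lay above 0, and those of the other 7 included it.

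The larger differences were between libraries of the same age. The pooled SD within an age was 1.02 for Cfd, 0.92 for Cidec, 0.89 for Retn, 0.84 for Adipoq and 0.77 for Plin1, against a median of 0.388 over all genes tested, whose 90th percentile was 0.820. Of all tested genes, 88.4% (for Plin1) to 95.3% (for Cfd) had a lower SD. Cebpa (0.41), Lpl (0.51) and Fabp4 (0.34) lay nearer the median. From the lowest to the highest library, Cfd spanned 7.88-fold, Cidec 7.25-fold, Adipoq 5.23-fold and Retn, with 1 library listed at 0, at least 5.73-fold, while counting error had an SD of 0.06 to 0.21 on the log2 scale for these genes. Fabp4 spanned 2.19-fold.

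**Figure D3:**
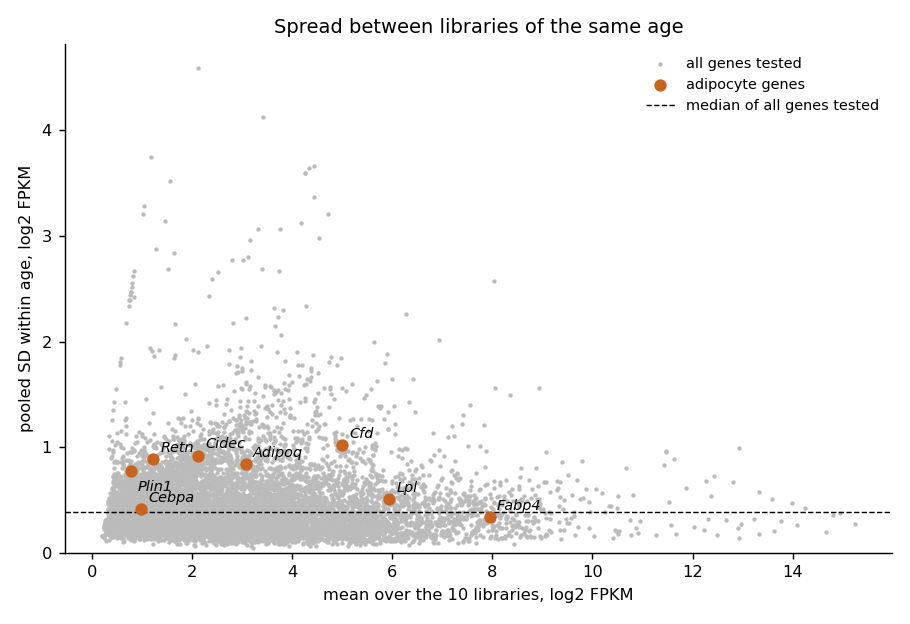
Mean log2 FPKM over the 10 libraries (x axis) against the pooled SD within an age (y axis) for the 10161 genes tested (gray) and the 8 tested members (orange), with the median SD of 0.388 dashed. Cfd, Cidec, Retn, Adipoq and Plin1 lay at 0.77 to 1.02, and Fabp4, at 0.34, lay under the median.

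In 8 of the 10 libraries, all but aged 3 and aged 5, these 5 genes all lay on the same side of their means. Their FPKM summed to 28.6, 67.8, 118, 15.1 and 38.5 in young 1 to 5 and to 66.3, 80.6, 90.1, 25.4 and 51.5 in aged 1 to 5. A listed 0 was taken as an FPKM of 0, so the sums of young 4 and aged 4 are lower limits. The sum thus varied at most 7.81-fold among young and 3.55-fold among aged libraries, with means of 53.6 ± 40.9 and 62.8 ± 25.5 (SD, n = 5 each). Young 4 was the lowest library, or at 0 together with others, for 8 of the 10 members, and it was at 0 for 5 of them. In whole tissue, fewer fat cells and less of these RNAs in each fat cell cannot be told apart. The 5 genes were grouped after their values were seen, and no test was made on the group.

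Across the 10 libraries, Retn and Cfd were the closest pair at the rows used, with Pearson's r of 0.97 and Spearman's rho of 0.98, and r was 0.95 without the libraries numbered 3, as it was for Cidec with Cfd. Adipoq had an r of 0.89 with Cidec and of 0.86 with Plin1. Its r with Cfd was 0.60 and with Retn 0.54, and these became 0.95 and 0.94 without the libraries numbered 3. Without the 2 libraries farthest from its median, young 4 and young 3, they were 0.19 and 0.08, with aged 3 still included. Cebpa also varied with these genes, with an r of 0.79 with Cidec, 0.75 with Cfd, 0.64 with Adipoq, 0.63 with Retn and 0.62 with Plin1, over a narrower range, and without young 4 and young 3 these were 0.50, 0.47, 0.19, 0.25 and 0.49. Lep had an r of 0.74 with Cidec. Points of a pair share the library and its depth, and the values are descriptions given without p.

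**Figure D4:**
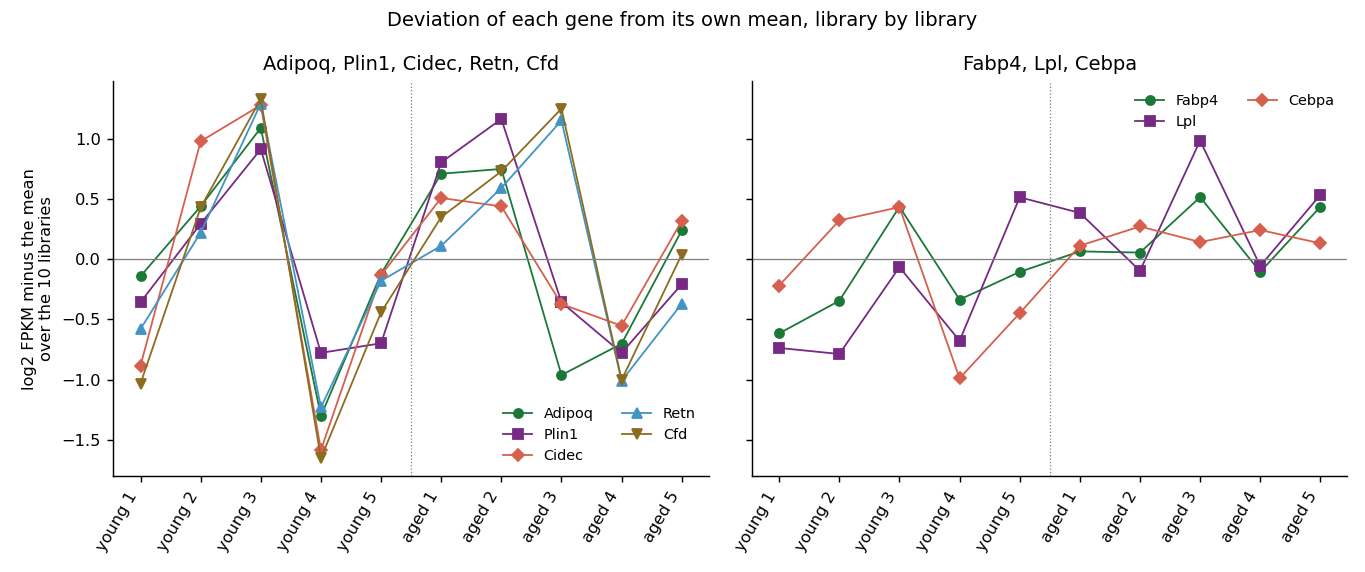
Log2 FPKM of each gene minus its own mean over the 10 libraries, for Adipoq, Plin1, Cidec, Retn and Cfd (left) and for Fabp4, Lpl and Cebpa (right), with young and aged libraries parted by the dotted line. On the left, all 5 genes were high in young 3 and low in young 4 and aged 4, and in aged 3 Retn and Cfd were high while Adipoq, Plin1 and Cidec were low.

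Aged 3 was the library in which the 5 genes parted, and there the transcript that was read mattered. The row used for Adipoq, Adipoq-002, is 539 bases long and the other, Adipoq-001, 1292 bases (chr16:23146536-23158028, plus strand). In aged 3 the reads of the short one were 26.9% of those of the long one and in young 3 53.1%, against 58.5% to 70.1% in the other 8 libraries. Cidec-003 had 15.4% and 40.5% of the reads of Cidec-001 in aged 3 and young 3, against 54.3% to 67.4%. For Lpl-002, a transcript annotated for nonsense-mediated decay, the shares of Lpl-001 were 2.78% and 17.9%, against 37.0% to 53.5%. Fewer reads did not go with shorter length in every gene. Retn-001 (874 bases) had 131% of the reads of Retn-201 (1139 bases) in aged 3 and 115% in young 3. The other libraries with reads had 104% to 126%. By their annotated ends, Adipoq-002 and Cidec-003 stop short of the 3′ ends of Adipoq-001 and Cidec-001, whereas Retn-001 reaches past that of Retn-201. Lpl-002 also reaches past the end of Lpl-001. Whether reads lay nearer the 3′ end in the libraries numbered 3 was not tested. The Plin1 transcripts, close in length, had 79 reads each in aged 3.

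**Figure D5:**
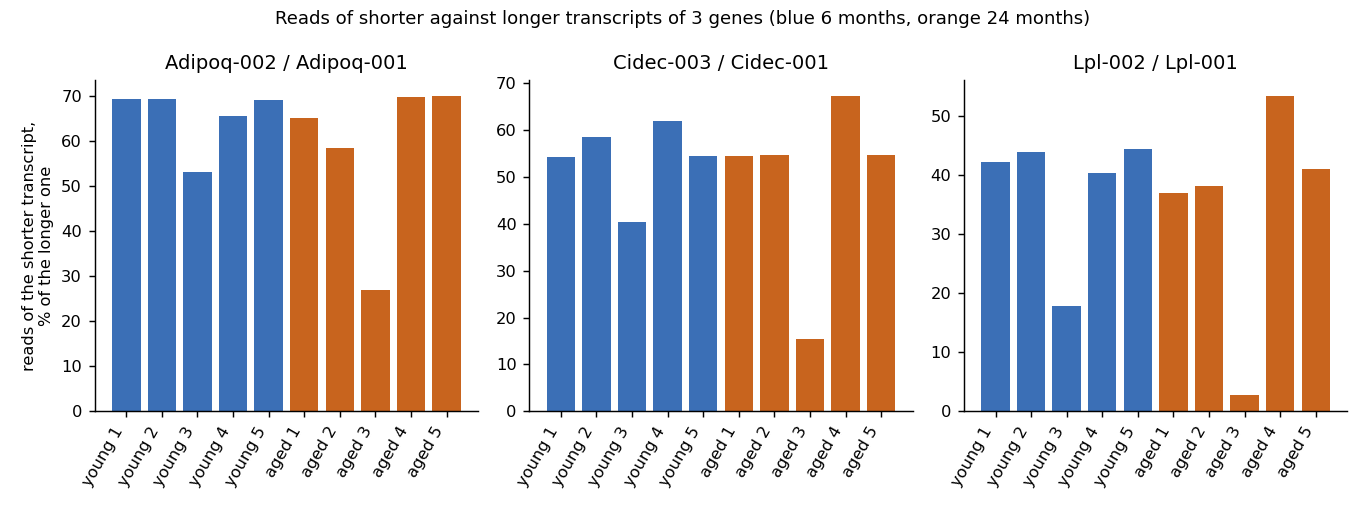
Reads of a shorter transcript as a percent of those of a longer one of the same gene (y axis, from 0) in each library, for Adipoq, Cidec and Lpl, with young libraries in blue and aged ones in orange. Aged 3 was the lowest bar (26.9%, 15.4% and 2.78%) and young 3 the next in all 3 panels.

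At the longest transcript of each gene, an alternative chosen after the values were seen, the r of Adipoq was 0.91 with Cfd, 0.88 with Cidec, 0.88 with Plin1 and 0.85 with Retn. Cidec with Cfd was then the higher pair, at 0.98 against 0.93 for Retn with Cfd, and aged 3 had an Adipoq-001 value of 2.74 against 2.11 for Adipoq-002. Cidec-001 reached 3.32 in aged 3, where Cidec-003 had 1.75. The differences between the ages were then 0.25 for Adipoq (exact permutation p = 0.667) and 0.41 for Cidec (exact permutation p = 0.571). Whatever the row, the ages overlapped.

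Fabp4 and Lpl had an r of 0.80 with each other (rho = 0.81), which was 0.83 without the libraries numbered 3. Their r was 0.23 and -0.02 with Adipoq and 0.31 and -0.02 with Plin1. At the longest transcripts it was 0.55 and 0.28 with Adipoq and, for Fabp4, 0.71 with Cidec, and without the libraries numbered 3 it was 0.40 and 0.33 with Adipoq. In young 4, the low library of the other members, Fabp4 was at 7.62 and Lpl at 5.26, close to young 2 (7.61 and 5.15). Their r with Cfd was 0.73 and 0.47. Pparg followed none of the members closely, with r from -0.21 (Lep) to 0.49 (Plin1), on 4 libraries above 0.

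Among genes above 0 in all libraries, those with the pattern most like Adipoq, members aside, were Atxn2 (r = 0.98), Pex14 (0.93), Mrps27 (0.90), Ntmt1 (0.88) and Zbtb22 (0.87), each at 1 transcript over 10 libraries. Lpl was followed by Gspt1 (0.95), Fabp3 (0.94), the fatty acid binding protein of heart and oxidative muscle, Golga7 (0.94), Actn2 (0.93), an actinin of the sarcomere, and Acaa2 (0.89), an enzyme of fatty acid oxidation in mitochondria. Fabp4 was followed by Sdf2 (0.95), Actr1a, U2af1 and Bub3 (0.94 each) and Fam105b (0.93). For Pparg they were Mib1 (0.95), Usp4 (0.93), Tgfb3 (0.90), Atp9a and Camk2b (0.89 each), and without aged 2 and aged 4 these were 0.82, 0.66, 0.80, 0.55 and 0.57. All the r values named here are the highest of many genes over 10 libraries, with no p. Those of Adipoq were ranked at Adipoq-002, which had 2.11 in aged 3 against 2.74 for Adipoq-001. The ranking was not repeated at Adipoq-001 or without the libraries numbered 3. Atxn2 had a pooled SD within an age of 0.20, against 0.84 for Adipoq.

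Of 26 other genes known from fat cells, 18 were above 0 in at least 1 library and 8 were at 0 in all. Of the 18, 11 had a higher and 7 a lower mean at 24 months, with a median difference of 0.15 over the 15 tested, none by over 1 and none with separated ages. The highest 2 were Gpd1, which makes glycerol phosphate and is also a muscle enzyme (mean 7.87), and Nnat (3.55). With a cut at an r of 0.7, chosen after the values were seen, 8 of the 18 (44.4%) followed Cfd: Adig, Thrsp, Aoc3, Sncg, Lipe, Pck1, Cdo1 and Rbp4. Of all other genes above 0, 7.17% did, as did 1 of 4 smooth muscle markers (25.0%), 2 of 9 endothelial markers (22.2%) and 3 of 21 regulators of fat cell formation (14.3%). Without both libraries numbered 3, 5 of the 17 fat cell genes that still varied reached that r (29.4%; Sncg, Lipe, Dgat2, Pck1 and Cdo1), beside 2.83% of all other genes. Lipe, the hormone-sensitive lipase, had 3.46 in young 3 and 1.75 in young 4, and Pck1, which feeds glycerol synthesis, 1.85 and 0. These 2 were picked among the genes that followed Cfd. In the same list, Gpd1, Acly and Mest had a negative r with Cfd (-0.54, -0.50 and -0.20). Gpd1 had 7.78 in young 3 and 8.45 in young 4. The brown fat genes Ucp1 and Cidea were at 0 in all libraries, as were 8 of 10 genes of that list; the other two were Cox7a1 (9.05) and Ppargc1a (1.40), both also made by muscle.

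Genes that work with the members were mostly present. Of 14 lipid droplet and lipolysis genes, 13 were above 0, with 7 higher and 6 lower at 24 months (median 0.03); Fitm1 (6.89) and Pnpla2 (6.19), the first lipase of triglyceride, were highest. Of 12 partners of Lpl, 9 were above 0 and 8 of them were higher (median 0.20), with Apoe (7.56) and Cd36 (5.22), a fatty acid transporter, highest. Apoc2, the activator of Lpl, was lower by -1.54 with values from 0 in young 3, aged 3 and aged 5 to 10.69 in young 2 (exact permutation p = 0.540), and by -0.13 without young 2. Gpihbp1, which holds Lpl on the capillary wall, differed by 0.03. The receptors of adiponectin were well expressed, with means of 6.45 for Adipor1 and 4.75 for Adipor2 and differences of -0.10 and 0.05. That list of 7 genes had 4 higher and 3 lower, with a median of -0.07 over the 5 tested. Cap1, reported as a receptor of resistin, was the 1 gene of the list whose ages did not overlap, beside 1.78% of all genes. It was higher by 0.51 (exact permutation p = 0.00794, limma adjusted p = 0.9999).

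Of 23 regulators of fat cell formation, 21 were above 0, with 12 higher and 9 lower (median 0.16 over the 17 tested), and Stat5b (5.38) and Rxra (4.75), the partner of Pparg on DNA, were highest. Cebpd (1.05), Klf2 (1.27) and Klf4 (1.19) were higher by over 1, as were 1.36% of all genes, and leaving out 1 library brought Klf2 to 0.81 (aged 3) and Cebpd to 0.71 (young 1) but Klf4 no lower than 1.08. Klf5 was at 0 in all young libraries and at 0.27 to 0.65 in the aged ones, and Ebf1 at 0 to 0.08 and 0.14 to 1.02, both without overlap (exact permutation p = 0.00794 each), as were 1.78% of all genes in that direction. All young values but the 0.08 of Ebf1 in young 2 were listed at 0, the floor of the listing, and both genes were too low on average to be tested in limma. Of 8 genes of the alternative complement pathway, in which Cfd acts, 6 were above 0 and 5 of them were higher (median 0.66). C3 (mean 4.15), the substrate of the pathway, and Cd55 (3.98) were highest, and Cfb, the target that Cfd cuts, was higher by 1.30 and Cfp by 1.04. Without aged 4, 4 of the 6 were higher and Cfb alone by over 1, and without aged 3 Cfp was higher by 0.43. limma called no gene of the lists described here at an adjusted p under 0.05.

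Markers of other cells in the muscle also differed between libraries. All 9 macrophage markers, of which 6 were tested, had a higher mean at 24 months (61.4% of all genes tested did). Of them, 4 were higher by over 1 (Cd68 1.41, C1qa 1.35, C1qb 1.56 and Lyz2 1.22), as were 1.36% of all genes. Lyz2 and C1qa were highest, at 4.47 and 2.76. The summed FPKM of the markers ran from 17.8 to 44.5 in young and from 32.1 to 146 in aged libraries. Emr1, which defines the type, was at 0 in 9 of 10 libraries. Without aged 4, 7 of 8 were higher, 3 of them by over 1 (Cd68, C1qa and C1qb), and the highest aged sum was 107. C1qa was higher by 0.91 without aged 3. The highest sum was in aged 4, the aged library with the lowest Fabp4, Cfd and Retn. Endothelial markers summed to 59.1 to 69.7 and 67.0 to 81.5, with 6 of 9 higher and Pecam1 (3.95) and Cdh5 (3.49) highest. The part of these cells in the values of Fabp4 and Lpl was not tested.

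Fibro-adipogenic progenitor markers, from the cells that can become fat in muscle, summed to 424 to 630 in young and 483 to 578 in aged libraries, with 6 higher and 3 lower of the 9 above 0 (median 0.07), led by Gsn (8.13) and Dcn (7.35). Smooth muscle markers summed to 38.4 to 132 and 46.2 to 103, with 3 of 4 higher, led by Tagln (5.30) and Acta2 (5.06). Tendon markers summed to 26.3 to 72.1 and 13.1 to 116, with 1 of 4 higher (2 of 4 without aged 4), led by Fmod (4.99) and Comp (2.73). Blood cell markers summed to 142 to 327 and 151 to 616, with 6 of 6 higher, led by Hba-a2 (6.58) and Hbb-b1 (6.52), whose near copies can share reads. That count rested on aged 4, in which alone Cd79a and Ptprc were above 0, and without it 2 of 4 were higher. Fiber markers had 3 of 9 higher (median -0.10), with Myh7, the slow myosin, higher by 1.24 within a wide spread (SD 1.61 young and 2.26 aged, n = 5 each; exact permutation p = 0.357) and by 0.59 without aged 1. Young 3, the library highest for 6 members, also held the highest young sums of endothelial, smooth muscle, tendon and blood cell markers, and the part of its make-up in the values of the members was not tested.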

How the data were processed

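The authors purified poly-A RNA, sequenced paired ends, mapped the reads to mm10 with TopHat2 and Bowtie2 and deposited log2 FPKM values for each library, without pooling. The methods describe an FPKM for each RefSeq gene, whereas the rows are Ensembl and Vega transcripts; the counting program is not given in the sources used here. An FPKM under 1 is listed as 0. All 10 columns matched a sample by name.

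Values were used as deposited. Depth, transcript length and reads were recovered from the steps between values, 19886212 to 34554346 reads a library, and describe precision only. limma 3.58.1 (R 4.3.3, default settings, Benjamini-Hochberg adjustment) compared 24 with 6 months over the 38059 transcripts whose FPKM averaged 1 or more, after a check on simulated data. Two-sided exact permutation tests were run on single genes (scipy 1.17.1). The members, the 15 other gene lists and the tests were chosen with earlier results of these data known; 1 list is not reported here. Of each list, the text names the 2 genes with the highest mean and those separated or different by over 1; the latter, and the genes that follow Cfd, were picked with their values in view. For likeness it names the 5 genes with the highest r to Adipoq, Lpl, Fabp4 and Pparg. Same-numbered young and aged libraries deviated together over the tested transcripts (r = 0.131, 0.332, 0.695, 0.390 and 0.208 for numbers 1 to 5, beside a mean of -0.038 and a highest value of 0.542 for different numbers), so a fit with the number as a block was an alternative. Others were the filter, pseudocounts, scalings, the transcript used, limma's variance settings and libraries left out. Sequences and windows are RefSeq GRCm38.p6, transcript positions GENCODE on GRCm38.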

Additional observations from a re-analysis of the deposited data

Results flagged for a closer look

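Among the 5 young libraries, Pparg was above 0 in young 3, at 0.11 on the log2 FPKM scale, while the other 4 were listed at 0, so that the whole range of the group was the gap to that library. The value stood for 66 reads in one of the 2 deepest libraries, and the listing of an FPKM under 1 as 0 sets the other 4 equal. Of the 20 groups examined (10 genes in 2 ages) 1 stood out in this way. About 1 in 20 does so by chance among values without a floor. With 4 values equal at 0 this group was bound to stand out, so that rate does not apply to it.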

How the results depend on the processing

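limma called 0 of the members under all 21 alternatives, and none differed by over 1 in those that changed the values or libraries. With the replicate number as a block the differences were as before (0.70 for Lpl, 0.39 for Fabp4 and 0.55 for Cfd) and the unadjusted p was 0.00887 for Lpl, 0.0315 for Fabp4 and 0.0430 for Cfd, with adjusted p of 0.5618, 0.5825 and 0.6025, so that the block changed no call at an adjusted p, while the count at an unadjusted p under 0.05 went from 1 to 3. Fabp4 was the 1 member whose ages came apart, giving a count of 1 without both libraries numbered 3 and 1 without young 3, and 0 to 1 over the 10 settings that leave out 1 library. The gap was that of 7.851 against 7.854. Fewer libraries make a separation easier, and the share of all genes separated in these settings was not computed. The sign turned in 12 values. Over the settings that leave out 1 library, the difference ran from -0.31 to 0.29 for Adipoq, from -0.01 to 0.51 for Plin1, from -0.24 to 0.47 for Cidec and from -0.09 to 0.54 for Retn, and with libraries scaled by the median of ratios that of Adipoq was -0.03. For Fabp4, Cfd, Cebpa, Lpl and Pparg the aged mean stayed higher under each alternative run (0.54 to 0.91 for Lpl, 0.28 to 0.54 for Fabp4, 0.21 to 0.95 for Cfd, 0.16 to 0.52 for Cebpa, 0.19 to 0.71 for Pparg), and for Lep lower. For Pparg, the values of 0.58 and 0.71 came from settings that took a listed 0 as an FPKM of 0, which widens the step from the floor. The median SD within an age over the tested members was 0.804, and 0.725 to 0.856 with 1 library left out. The listing of an FPKM under 1 as 0 limits Pparg, Lep, Plin1, Retn and Cebpa, whose differences below that level were not detectable.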
